A study of Mus musculus with 8 samples.

Results

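The Bcl-2 family decides whether a T cell lives or dies at the mitochondrion, and 10 of its genes were chosen by symbol: the survival genes Bcl2, Bcl2l1 and Mcl1, the effector genes Bax and Bak1, and the BH3-only genes Bid, Bad, Bcl2l11, Bbc3 and Pmaip1. A probe set assigned to 1 of these symbols alone was found for 9 of the 10, 1 probe set per gene, among 11128 genes tested. Bax was not analysed here. Transcripts were measured on 8 Affymetrix mouse arrays from CD4+ T cells labelled as Th17 cells, in 4 groups of 2 biological replicates each. The groups were SRC-3-deficient cells and the wild-type cells of that experiment, and RORγt-deficient cells and the wild-type cells of their own experiment. SRC-3 is a coactivator recruited by nuclear receptors, and RORγt is the nuclear receptor that directs Th17 differentiation. The source mice of the SRC-3-deficient cells were labelled f/f, without the Cre or the cell type in which the gene was removed, and those of the RORγt-deficient cells were labelled -/-. All 4 groups share the label of Th17 culture, which the protocol describes for SRC-3-deficient and wild-type naive cells as activation through CD3 and CD28 with interleukins 1, 6 and 23. The age of the mice was not stated, and the titles call the replicates biological without naming separate mice or cultures. The p-values therefore cover only the spread between these arrays, which may be technical.

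Survival proteins of this family (Bcl-2, Bcl-xL from Bcl2l1, and Mcl-1) hold back Bax and Bak, which otherwise form pores in the outer mitochondrial membrane and release cytochrome c. BH3-only proteins sense stress and cytokine loss and either block the survival proteins or engage Bax and Bak directly. In mouse T cells Bim, the product of Bcl2l11, drives the death of cells that lose cytokine support or finish a response, while Mcl-1 is needed for T cell survival at most stages. In the mouse thymus RORγt is known to maintain Bcl-xL in CD4 CD8 double-positive thymocytes, which die early without it.

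Of the 4 genes that changed without RORγt, Bcl2l1 and Bid lower and Mcl1 and Bcl2l11 higher, the 250 bases before 1 RefSeq start are shown for Bcl2l1 and Bcl2l11, the genes whose fold changes also differed between the comparisons. The window shown is the one of each gene's starts that held a match to a nuclear receptor or FOXO motif. The assembly is GRCm38.p6, the Bcl2l1 window is chr2:152828490-152828739 on the minus strand, and the Bcl2l11 window is chr2:128125788-128126037 on the plus strand. Sequences run 5′ to 3′ on the gene's strand, and capitals mark matches to the motifs named after them.
Bcl2l1: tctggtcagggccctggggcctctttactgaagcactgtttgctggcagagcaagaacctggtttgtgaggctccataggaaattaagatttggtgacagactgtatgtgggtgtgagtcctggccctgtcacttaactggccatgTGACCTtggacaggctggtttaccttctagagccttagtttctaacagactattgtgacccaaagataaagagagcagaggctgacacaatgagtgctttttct
Bcl2l11: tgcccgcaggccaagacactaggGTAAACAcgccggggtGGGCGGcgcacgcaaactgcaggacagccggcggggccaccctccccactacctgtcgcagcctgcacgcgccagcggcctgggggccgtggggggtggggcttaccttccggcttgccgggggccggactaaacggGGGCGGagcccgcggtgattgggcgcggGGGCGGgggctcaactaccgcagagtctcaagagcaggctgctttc
In the Bcl2l1 window the capitals mark AGGTCA, the core that RORγt and other nuclear receptors recognise, read on the opposite strand 104 to 99 bases before the start. The other 2 Bcl2l1 windows lie upstream of this one and lack it. On the minus strand the annotated gene begins further upstream still, at chr2:152833803, so the start shown lies inside the gene. In the Bcl2l11 window the capitals mark the FOXO site GTAAACA, 227 to 221 bases before the start, and 3 GC boxes, GGGCGG. The FOXO letters were also in 1 window of Bbc3. FOXO factors are known activators of Bcl2l11 in mouse T cells. Over both strands, AGGTCA was in 14.0% and GTAAACA in 3.17% of 32841 RefSeq windows of this length, and GGGCGG in 32.7%. Among the 14 windows of the family, AGGTCA was in 1, a share below that of all windows, and GTAAACA in 2. The longer ROR response element, which is the core with an AT-rich extension ahead of it and so overlaps it, was in 0.609% of all windows and in 0 of the 14 windows of the 8 family genes for which a window was used. The other motifs searched were the STAT site TTCNNNGAA (7.02% of all windows), the cyclic AMP element TGACGTCA (1.55%) and the NF-κB core (0.14%), each in 0 of the 14 windows, and the E-box CACGTG (6.02%), in 1 window of Bbc3. The 14 windows were GC-rich, 12 of the 14 lying above the median GC content of all windows (52.4%), and 9 of the 14 held a GC box, in Bcl2, Mcl1, Bid, Bad, Bcl2l11 and Bbc3. Matches are a description of these letters and are not binding sites shown by these data.

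Without RORγt, 4 of the 9 family genes passed the test, 2 higher and 2 lower in the deficient cells. Bcl2l1 fell to 0.650 of its wild-type level and Bid to 0.833, while Bcl2l11 rose 1.29-fold and Mcl1 1.28-fold (n = 2 per group). The other 5 genes, Bcl2, Bak1, Bad, Bbc3 and Pmaip1, did not pass the test. Without SRC-3, none of the 9 genes passed by limma, although 3 had an unadjusted p under 0.05. The threshold was a limma p-value below 0.05 after Benjamini-Hochberg adjustment over all genes. In the RORγt comparison 19.4% of all genes passed it (1114 higher and 1043 lower in the deficient cells, of 11128), beside 4 of the 9 family genes. At an unadjusted p under 0.05 these were 34.6% of all genes and 5 of the 9. In the SRC-3 comparison 0.225% passed, and 12.5% had an unadjusted p under 0.05. The plot of log2 signals on each array shows all 9 genes.

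**Figure D1:**
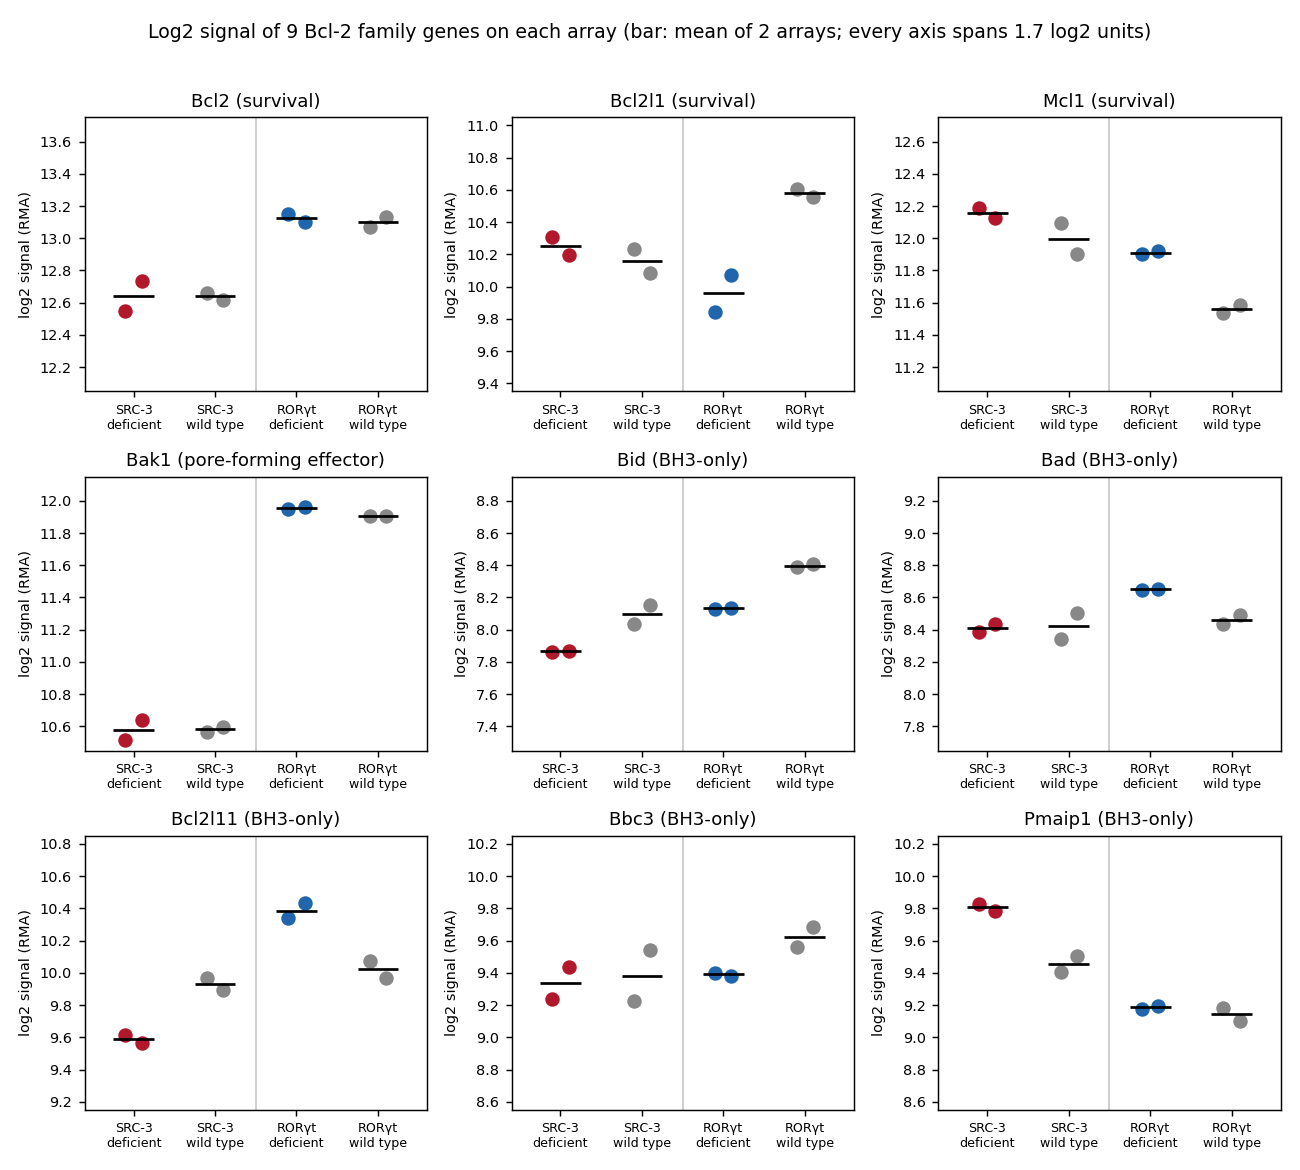
Log2 signal (RMA) of each gene on each of the 8 arrays, by group, with a bar at the mean of 2 arrays and a grey line between the experiments. Bcl2l1 is lowest on the 2 RORγt-deficient arrays (9.84 and 10.07), Bcl2l11 is highest on them (10.34 and 10.43), and for Bcl2, Bak1 and Pmaip1 all 4 arrays of one experiment lie apart from all 4 of the other.

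The labels were checked first. Ncoa3, the gene of SRC-3, gave log2 signals of 11.15 and 10.97 on the SRC-3-deficient arrays, against 11.76 and 11.53 in the wild type (difference −0.58, limma adjusted p = 0.0567), and the labels do not say which part of the gene was removed. All 7 measured T cell marker genes reached the filter value, a log2 signal of 7.85, on every array, and all 7 myeloid markers lay below it on every array. Of the CD8 and NK cell markers 5 of 7 lay below it on every array, with a mean log2 level over the list of 6.95 to 7.01 in RORγt-deficient cells against 6.64 to 6.65 in their wild type, led by Klrd1 (log2 fold change 1.90, adjusted p = 0.000485). Of the 6 measured B cell markers 4 lay below it everywhere, and Ebf1 fell in RORγt-deficient cells (−1.33, adjusted p = 0.0131). The other B cell markers did not share a direction there. Cd79b (−0.21, adjusted p = 0.214) and Pax5 (−0.06) were lower without passing, and Cd79a (0.06), Ms4a1 (0.09) and Cd22 (0.09) were slightly higher. Of 5 measured Th17 markers 4 fell in RORγt-deficient cells and 1, Il17f, in SRC-3-deficient cells. The part of any of these cell markers in the results was not tested. Xist, the RNA that coats the silenced X chromosome in female cells, gave 6.37 and 6.08 on the RORγt-deficient arrays, against 12.55 and 12.76 on their wild-type arrays, and 7.10 and 13.60 on the SRC-3-deficient arrays, against 13.65 and 13.52 on theirs. The Y-linked gene Eif2s3y ran the other way, at 10.47 and 10.48 in RORγt-deficient cells against 4.84 and 4.63 in their wild type, and at 11.16 and 4.87 in SRC-3-deficient cells against 4.91 and 4.59 in theirs. All 9 family genes are autosomal. In the SRC-3 experiment, leaving out deficient replicate 1, the array with low Xist, left 1 deficient array. The log2 fold changes were then −0.37 for Bcl2l11, −0.22 for Bid and 0.33 for Pmaip1. They were 0.13 for Mcl1, 0.09 for Bcl2 and 0.04 for Bcl2l1. Bak1 (0.06), Bad (0.01) and Bbc3 (0.05) changed from small negative to small positive values. The part of sex in these values was not tested. In the RORγt experiment the sex pattern and the genotype cannot be told apart.

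Among the survival genes, Bcl2l1 had log2 signals of 9.84 and 10.07 in RORγt-deficient cells, against 10.60 and 10.55 in wild-type cells. Both deficient arrays lay below both wild-type arrays, and below the 4 arrays of the SRC-3 experiment. The log2 fold change was −0.62 (SE 0.09, 95% interval −0.84 to −0.41, limma adjusted p = 0.0056). In bulk RNA, fewer cells of a type and less RNA per cell cannot be told apart, here and in all values that follow. Bcl2l1 was the only family gene called in all 19 alternative settings that tested it, and its adjusted p reached 0.0486 without wild-type replicate 1.

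In the SRC-3 experiment Bcl2l1 gave 10.31 and 10.20 in deficient cells, against 10.23 and 10.09 in wild-type cells. These pairs overlapped, and the log2 fold change was 0.09 (95% interval −0.12 to 0.31, adjusted p = 0.755). The 2 fold changes differed by 0.71 on the log2 scale (SRC-3 minus RORγt, SE 0.13, limma adjusted p = 0.0466 over all genes). The test of this difference passed for 1.67% of all genes and for 2 of the 9 family genes, Bcl2l1 and Bcl2l11. For Bcl2l1 it was lost with a new quantile normalization (adjusted p = 0.0599), each array shifted to 1 median (0.059), no filter (0.0559), array weights (0.0603) and on leaving out each array in turn, except the first SRC-3 wild-type array (adjusted p up to 0.189).

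Mcl1 had log2 signals of 11.90 and 11.92 in RORγt-deficient cells, against 11.53 and 11.59 in wild-type cells. Both deficient arrays were above both wild-type arrays, by a log2 fold change of 0.35 that passed the test (SE 0.07, 95% interval 0.18 to 0.52, adjusted p = 0.0177). The call was lost without any 1 of these 4 arrays (log2 fold change 0.33 to 0.38, adjusted p between 0.0823 and 0.107). In SRC-3-deficient cells Mcl1 gave 12.19 and 12.13, against 12.09 and 11.90 in their wild type. Those groups did not overlap either, but the log2 fold change of 0.16 did not pass (95% interval −0.01 to 0.34, adjusted p = 0.421).

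Bcl2, the founding survival gene, gave 13.15 and 13.10 in RORγt-deficient cells, against 13.07 and 13.13 in wild-type cells. It gave 12.55 and 12.73 in SRC-3-deficient cells, against 12.66 and 12.62 in their wild type. In both comparisons the pairs overlapped. The log2 fold changes were 0.02 without RORγt (95% interval −0.15 to 0.20, adjusted p = 0.846) and 0.00 without SRC-3 (−0.17 to 0.17, adjusted p = 0.996), so a change of more than about 0.20 in either direction lies outside both intervals.

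Bak1, the measured pore-forming effector, gave 11.95 and 11.96 in RORγt-deficient cells, against 11.91 and 11.90 in wild-type cells. The deficient arrays were higher by a margin that did not pass (log2 fold change 0.05, 95% interval −0.09 to 0.19, adjusted p = 0.615). In the SRC-3 experiment it gave 10.52 and 10.64 in deficient cells, against 10.57 and 10.60 in wild-type cells (0.00, 95% interval −0.14 to 0.14, adjusted p = 0.998). All 4 arrays of the RORγt experiment lay above all 4 of the SRC-3 experiment, as they did for Bcl2, while for Pmaip1 they lay below. For Bak1 the RORγt wild-type mean was 1.32 above the SRC-3 wild-type mean on the log2 scale. A gap of at least this size, in either direction, was seen in 1.19% of all genes. The median signed gap over all genes, in which positive and negative gaps offset each other, was 0.02. The experiments differ in mice and possibly in handling, and these cannot be told apart.

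Among the BH3-only genes, Bcl2l11 moved in opposite directions in the 2 comparisons. It had log2 signals of 10.34 and 10.43 in RORγt-deficient cells, against 10.08 and 9.97 in wild-type cells (log2 fold change 0.36, SE 0.07, adjusted p = 0.0112). In SRC-3-deficient cells it gave 9.61 and 9.56, against 9.97 and 9.89 in wild-type cells (−0.34, SE 0.07, 95% interval −0.50 to −0.19, adjusted p = 0.0998), which did not pass. Each pair of groups was free of overlap, with RORγt-deficient cells highest and SRC-3-deficient cells lowest of the 4 groups. The wild-type groups between them overlapped, at means of 10.02 and 9.93.

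The difference between these fold changes of Bcl2l11 was −0.71 on the log2 scale (SRC-3 minus RORγt, SE 0.10, limma adjusted p = 0.0191). It stayed past the threshold under new quantile normalization, a shift to 1 median, no filter, the stricter filter and array weights (adjusted p between 0.0181 and 0.0255). It was lost without SRC-3-deficient replicate 2 (adjusted p = 0.0612) and without any 1 array of the RORγt experiment (adjusted p between 0.0811 and 0.099). The rise in RORγt-deficient cells itself missed the threshold on leaving out the first (adjusted p = 0.0531) or second (0.0741) deficient array, or the second wild-type array (0.087).

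Bid, whose product is cut by caspase-8 and links death receptors to the mitochondrion, lay near the filter value. It gave log2 signals of 8.13 and 8.14 in RORγt-deficient cells, against 8.39 and 8.41 in wild-type cells (log2 fold change −0.26, SE 0.06, adjusted p = 0.022). The call was lost without any 1 of these 4 arrays (−0.27 to −0.26, adjusted p between 0.098 and 0.129). In SRC-3-deficient cells it gave 7.86 and 7.87, against 8.04 and 8.15 in their wild type. These groups were also apart, with a log2 fold change of −0.23 that did not pass (95% interval −0.37 to −0.09, adjusted p = 0.174). The difference between the 2 fold changes was 0.03 (95% interval −0.16 to 0.23, adjusted p = 0.87).

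Pmaip1 encodes Noxa, which binds Mcl-1 and promotes its degradation. It gave 9.83 and 9.78 in SRC-3-deficient cells, against 9.40 and 9.51 in wild-type cells, the largest positive fold change of the 9 genes in this comparison. Both deficient arrays were above both wild-type arrays, but the log2 fold change of 0.35 did not pass (SE 0.06, 95% interval 0.21 to 0.50, adjusted p = 0.077). In RORγt-deficient cells it gave 9.18 and 9.20, against 9.18 and 9.10 in wild-type cells (0.04, 95% interval −0.10 to 0.19, adjusted p = 0.674). The difference between the 2 fold changes, 0.31, did not pass (adjusted p = 0.141).

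Bbc3 encodes Puma, a p53 target that also responds to cytokine loss, and Bad is a BH3-only protein that survival kinases inactivate by phosphorylation. Bbc3 gave 9.40 and 9.38 in RORγt-deficient cells, against 9.56 and 9.69 in wild-type cells (log2 fold change −0.23, 95% interval −0.50 to 0.03, adjusted p = 0.191). Bad gave 8.65 and 8.66 in RORγt-deficient cells, against 8.43 and 8.49 in wild-type cells (0.19, 95% interval 0.03 to 0.35, adjusted p = 0.0986). For both genes these groups were apart without passing the test. Fitted on the 4 RORγt-experiment arrays alone, both passed (limma adjusted p = 0.0346 for Bbc3 and 0.039 for Bad).

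In the SRC-3 experiment Bbc3 and Bad overlapped between genotypes. Bbc3 gave 9.24 and 9.43 in deficient cells, against 9.23 and 9.54 in wild-type cells (log2 fold change −0.05, 95% interval −0.31 to 0.22, adjusted p = 0.925). Bad gave 8.38 and 8.43 in deficient cells, against 8.34 and 8.51 in wild-type cells (−0.01, 95% interval −0.17 to 0.15, adjusted p = 0.968).

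Over the family, the deficient and wild-type arrays did not overlap for 7 of 9 genes in the RORγt comparison and for 4 of 9 in the SRC-3 comparison. All genes gave 70.0% and 37.2%, so both counts of the family were near those of all genes. The median log2 fold change of the 9 genes was 0.04 without RORγt, where all genes gave 0.00, and 0.00 without SRC-3, where all genes gave 0.02. In the RORγt comparison the genes called included 1 higher and 1 lower among survival genes, and 1 higher and 1 lower among BH3-only genes.

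**Figure D2:**
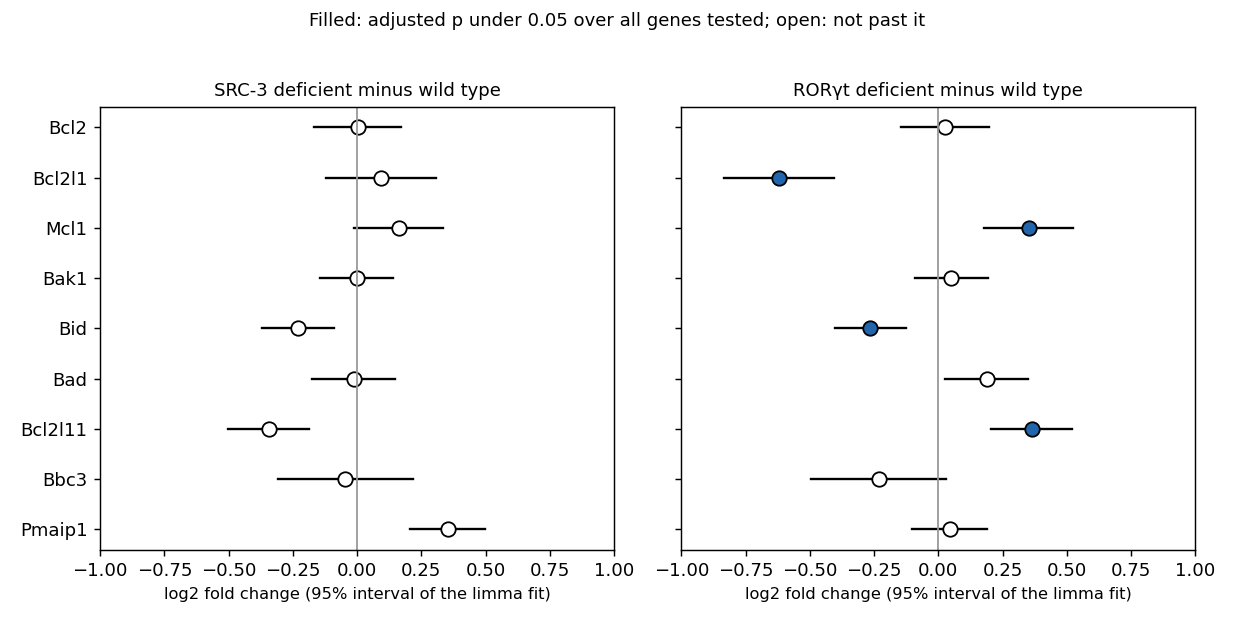
Log2 fold change, deficient minus wild type, of the 9 genes in the SRC-3 comparison (left) and the RORγt comparison (right), with 95% intervals of the limma fit. Filled points (Bcl2l1, Mcl1, Bid and Bcl2l11, right) had an adjusted p under 0.05. Bcl2l11 lies at −0.34 on the left and at 0.36 on the right.

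Genes that act with the family were taken from 6 lists of 82 genes, of which 70 were tested. In the RORγt comparison 6 rose and 7 fell (18.6%, close to the 19.4% of all genes), with a median log2 fold change of −0.03. In the SRC-3 comparison 0 of 70 passed by limma, where 0.225% of all genes did. An unadjusted limma p under 0.05 was seen for 14 of the 70 and for 12.5% of all genes.

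The death receptor list, whose pathway meets the Bcl-2 family at Bid, held 10 tested genes, of which 2 rose and 2 fell without RORγt. In this comparison 19.4% of all genes passed. Tnfsf10, the gene of the death ligand TRAIL, gave log2 signals of 8.95 and 8.90 in RORγt-deficient cells, against 8.03 and 7.97 in wild-type cells (log2 fold change 0.93, SE 0.16, adjusted p = 0.00902). The gene of its mouse receptor, Tnfrsf10b, gave 10.12 and 10.33, against 10.86 and 11.00 in wild-type cells (−0.70, SE 0.10, adjusted p = 0.00567). Ligand and receptor transcripts thus moved in opposite directions, with no overlap of groups, which 70.0% of all genes also showed in this comparison. Ripk3, a kinase of necroptosis, rose (0.67, adjusted p = 0.014), and Tnfrsf1a, the gene of TNF receptor 1, fell (−0.27, adjusted p = 0.0201). Without SRC-3 no gene of this list passed, where 0.225% of all genes did. The smallest p there belonged to Fas, a death receptor (log2 fold change 0.33, adjusted p = 0.163), and Tnfsf10 (0.59, adjusted p = 0.203).

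Of 11 tested genes among p53 and FOXO regulators, 2 rose and 3 fell without RORγt, beside 19.4% of all genes called in either direction. Foxo1, a FOXO factor gene, gave 11.55 and 11.70 in RORγt-deficient cells, against 11.17 and 11.13 in wild-type cells (log2 fold change 0.48, SE 0.08, adjusted p = 0.00846). Foxo3, another FOXO factor gene, went the other way without passing (−0.15, adjusted p = 0.103). Sesn1, a sestrin gene that p53 and FOXO factors activate, rose (0.38, adjusted p = 0.0143), whereas its relative Sesn2 fell (−0.74, SE 0.08, adjusted p = 0.00242). Mdm2, the ubiquitin ligase gene that p53 activates and whose product degrades p53, fell (−0.44, adjusted p = 0.00628), as did E2f1 (−0.22, adjusted p = 0.0499). Without SRC-3, E2f1 was the closest to the threshold of the 70 genes, at −0.37 (SE 0.06, adjusted p = 0.0726), followed in this list by Trp73 (−0.21, adjusted p = 0.378).

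The cytokine survival list, 10 tested genes, held 1 that rose and 1 that fell without RORγt, beside 19.4% of all genes called in either direction. Il7r, the receptor gene of the cytokine that sustains Bcl-2 in resting T cells, gave 12.22 and 12.30 in RORγt-deficient cells, against 12.70 and 12.70 in wild-type cells (log2 fold change −0.44, SE 0.06, adjusted p = 0.0036). Akt2, a survival kinase gene, rose (0.23, adjusted p = 0.0367). Without SRC-3 the values nearest the threshold were −0.24 for Il7r (adjusted p = 0.16) and −0.32 for Pim2, a kinase that phosphorylates Bad (adjusted p = 0.228).

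Of 17 tested genes of the apoptosome, caspases and their inhibitors, Casp2, an initiator caspase gene, rose (log2 fold change 0.27, adjusted p = 0.0202) and Htra2, a mitochondrial protease gene, fell (−0.28, adjusted p = 0.0403) without RORγt. Of all genes, 19.4% passed in the RORγt comparison and 0.225% in the SRC-3 comparison. Without SRC-3, Birc3 and Birc2, inhibitor of apoptosis genes, gave 0.25 (adjusted p = 0.283) and 0.30 (0.327). None of 11 tested other Bcl-2 relatives passed by limma in either comparison: without RORγt the lowest p belonged to the BH3-only genes Bik (−0.22, adjusted p = 0.0599) and Bmf (−0.18, 0.0908), and without SRC-3 to Bcl2l13 (0.26, 0.173) and Bnip3 (0.27, 0.199). None of 11 tested genes of the list named for Mcl-1 and Bim turnover passed either. There the lowest p belonged to Fbxw7, a ubiquitin ligase gene that targets Mcl-1 (0.40, adjusted p = 0.0544), and Huwe1 (−0.12, 0.194) without RORγt, and to Bag3 (−0.11, 0.515) and Fbxo7 (−0.14, 0.579) without SRC-3.

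**Figure D3:**
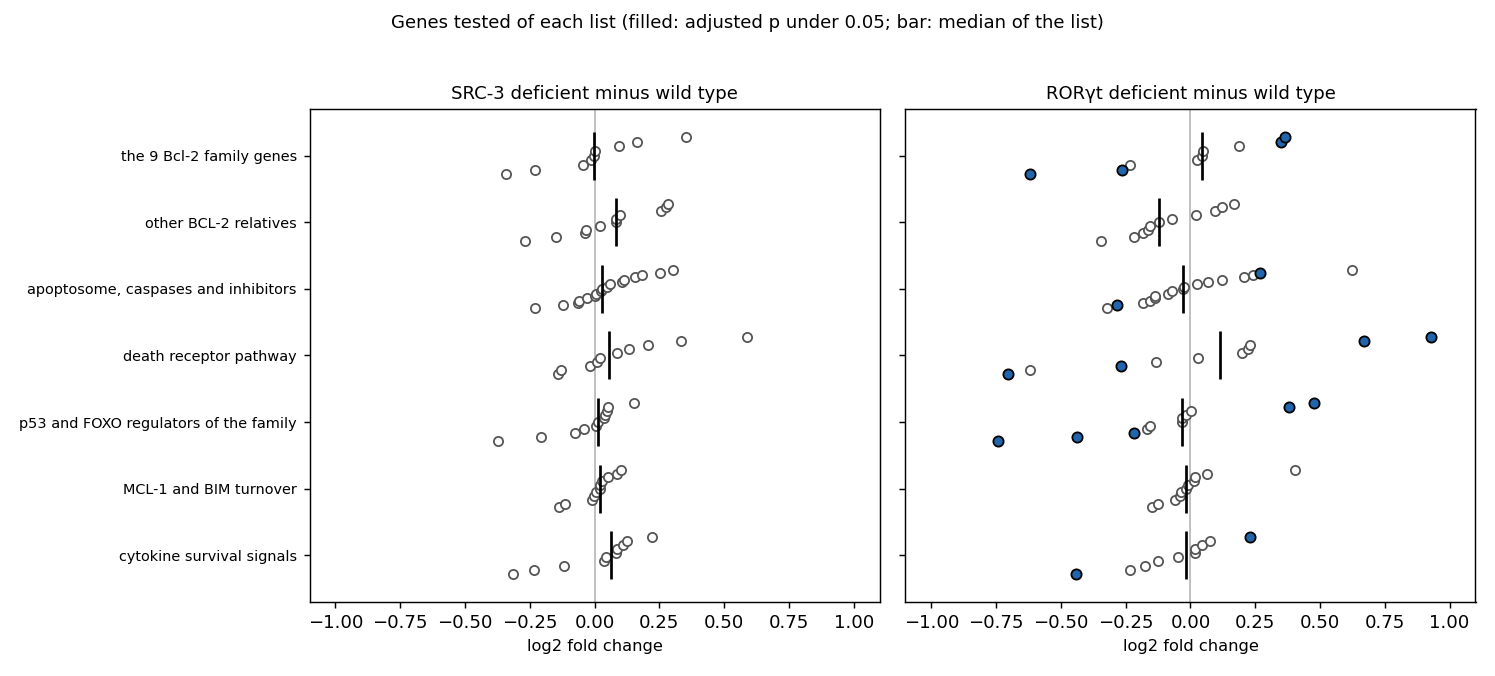
Log2 fold change, deficient minus wild type, of each tested gene of the family and of the 6 pathway lists, in the SRC-3 comparison (left) and the RORγt comparison (right), with a bar at each list's median. Filled points had an adjusted p under 0.05, and they lie on both sides of 0 in the RORγt comparison, from −0.74 (Sesn2) to 0.93 (Tnfsf10).

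With 2 arrays in a group, the RORγt calls depended on the arrays to different degrees, as the plot of adjusted p with each array left out shows. The count of 4 family genes was 1 without RORγt-deficient replicate 1, RORγt-deficient replicate 2 or wild-type replicate 2, and 2 without wild-type replicate 1. Bcl2l1 was called in each of these fits.

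**Figure D4:**
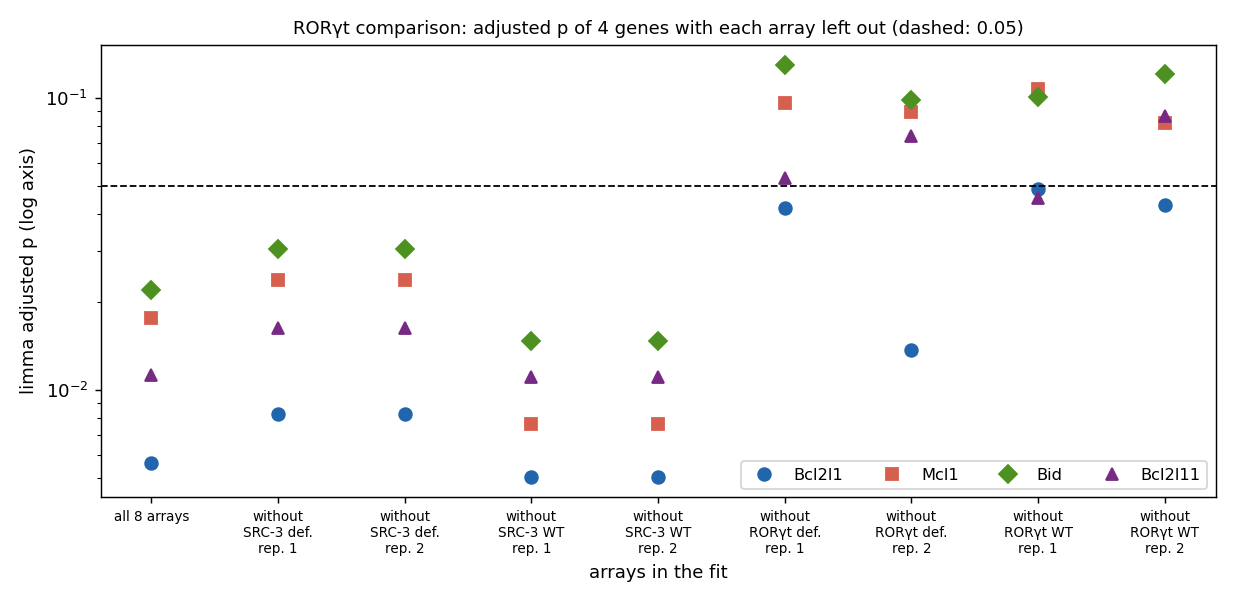
Limma adjusted p (log axis) of Bcl2l1, Mcl1, Bid and Bcl2l11 in the RORγt comparison, with all 8 arrays and with each array left out. Leaving out an SRC-3 array leaves all 4 below the dashed line at 0.05, and leaving out a RORγt-experiment array leaves Bcl2l1 below it each time, and Bcl2l11 only without wild-type replicate 1.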

How the data were processed

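Biotinylated cRNA from total RNA was hybridised to 8 arrays, per the labels. The authors deposited log2 signals. The submitters' processing notes name RMA and Affymetrix Expression Console, without a version. Of 35556 probe sets, the platform annotation gave 21789 a single symbol, 1621 several and 12146 none. The filter required a signal of at least 7.85, the median of all values, on 2 or more arrays, and each gene was represented by its brightest probe set. All 9 measured family genes passed this filter on all 8 arrays. Group means were fitted with limma 3.58.1 in R 4.3.3 to all 8 arrays, with 4 residual degrees of freedom, and contrasts were deficient minus wild type and SRC-3 minus RORγt. Tests were two-sided, with Benjamini-Hochberg adjustment over 11128 genes, and the fit was tested on simulated data. Promoter windows came from RefSeq, GRCm38.p6, since the files name no build. The 9 genes were all named by symbol. From each pathway list up to 6 genes past the threshold were named, otherwise 2. The members, lists and motifs were chosen with earlier results of these data known. Alternatives covered normalization, filter, probe set summary, arrays fitted, variance prior, weights, the replicate number, threshold and each array left out. The number of arrays limits the precision. A label check is not reported here.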

Additional observations from a re-analysis of the deposited data

Results flagged for a closer look

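Among the 9 family genes, the test of a difference between the comparisons passed for 2 with opposite roles. It passed for 1.67% of all genes. For Bcl2l11 the SRC-3 log2 fold change minus the RORγt log2 fold change was −0.71, from −0.34 without SRC-3 and 0.36 without RORγt (limma adjusted p = 0.0191, n = 2 per group, with no overlap between deficient and wild-type arrays in either experiment). For Bcl2l1 it was 0.71, from 0.09 without SRC-3 and −0.62 without RORγt (adjusted p = 0.0466). Over all genes, deficient and wild-type arrays did not overlap for 37.2% in the SRC-3 comparison and for 70.0% in the RORγt comparison. Of the 18 alternative settings that tested this difference, it stayed past the threshold in 12 for Bcl2l11 and in only 6 for Bcl2l1. Settings in which it was lost are given for each gene above. Genotype, mice and experiment differ together between these comparisons and cannot be told apart.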

How the results depend on the processing

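No result changed direction past the threshold in any of the 19 alternatives. In the SRC-3 comparison 0 family genes and 0 pathway genes passed in all fits without the replicate block at a threshold of 0.05; a threshold of 0.10 gave 2 and 1. The 25 genes called in all (21 higher, 4 lower) were 14 with the stricter filter, 47 with an intensity trend and robust prior, 10 with array weights, 0 with the 4 arrays alone, 0 at a threshold of 0.01 and 129 at 0.10, and 0 to 61 with 1 array left out; a new quantile normalization gave 16 higher and 6 lower. In the RORγt comparison the 4 family genes were 6 with the 4 arrays alone, 5 with array weights, 3 with the stricter filter, 1 at 0.01 and 5 at 0.10. Their number fell when an array of the RORγt experiment was left out, as given above. The 2157 genes called in all were 3389 with the 4 arrays alone, 3679 with array weights, 749 at 0.01, and 486 to 2539 with 1 array left out. The 13 pathway genes were 20, 28 and 6 in the first 3 of these, and 2 to 15 with 1 array left out. The 2 family genes whose comparisons differed were 1 after quantile normalization, after a shift to 1 median, with no filter and with array weights, 0 at 0.01, and 0 to 2 with 1 array left out. The cause of these shifts was not tested.

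No label says that equal replicate numbers mark paired samples. Deviations of same-numbered arrays correlated across genes with r = 0.536 in the SRC-3 experiment and 0.002 in the RORγt experiment. A limma fit with a replicate block gave 301 genes, 2 pathway genes and 1 family gene, Pmaip1 (adjusted p = 0.0419), in the SRC-3 comparison, and 3411 genes, 22 pathway genes and 6 family genes in the RORγt comparison.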
